A study of Mus musculus with 14 samples.

Results

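The proteasome subunit genes were taken as every gene in the RNA-seq tables whose symbol begins with Psma to Psmg followed by a digit. The rule found 48 of 19215 genes, and 38 of 13189 cassette exon events lay in 21 of them. Cassette exons are those that some transcripts of a gene keep and others splice out. Psmc3ip, also found by the rule, encodes a protein of meiotic recombination and not a proteasome subunit. Its own values are given by name, but counts over the 48 genes or the members include it. Psma8, the alpha subunit of the testis, was not analysed here.

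The RNA levels came from whole spinal cord (WSC) of SOD1 WT transgenic mice, Tg(SOD1)2Gur/J, in a mixed B6/SJL background at 12 weeks of age, with a male giving 1 library and a female the other. These mice carry a transgene for human wild-type SOD1, and no library without it was among the RNA-seq samples. NOVA binding came from crosslinking and immunoprecipitation (CLIP) in C57BL/6 mice at 3 months of age. For motoneurons (MN), 4 libraries each of the hemizygous lines Chat:GFP-Nova #6 and Chat:GFP-Nova #17 were made from pooled spinal cords with antibodies against GFP. In these lines the Chat promoter drives GFP-tagged NOVA2, so binding could be read from cholinergic neurons within the whole cord. For WSC, 4 libraries were made from wild-type spinal cord with serum against endogenous NOVA1 and NOVA2. Cell source, genotype, the NOVA proteins precipitated, antibody, tag, pooling and depth therefore change together between MN and WSC CLIP and cannot be told apart. The 5′ linker also differed, since replicates 1 and 2 of both MN lines had a short design and all other libraries the long one.

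The proteasome is the main protease of the cytosol and nucleus for proteins tagged with ubiquitin. Its 20S core is a barrel of stacked alpha and beta rings, and the beta subunits Psmb5, Psmb6 and Psmb7 hold the active sites inside it. Immune cells and cells exposed to interferon replace these with the inducible subunits Psmb8, Psmb9 and Psmb10, which form the immunoproteasome. The 19S regulatory particle caps the core, recognises ubiquitin, and unfolds and feeds the substrate with a ring of ATPases, and other caps such as the PA28 proteins and PA200 open the core without ubiquitin. In neurons the proteasome serves protein quality control as well as the turnover of synaptic proteins. NOVA, the protein precipitated in the CLIP samples, is a neuronal RNA-binding protein that recognises the tetramer YCAY, a C or T followed by CA and a C or T, and regulates splicing and polyadenylation.

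The 2 RNA-seq libraries had 72006019 (male) and 65625173 (female) reads on genes. The files of the 8 MN CLIP libraries held 65961 to 871804 unique tags, against 2213104 to 6095995 in the 4 WSC libraries. Of the tags on genes, 32.9% to 46.0% lay on exons in MN and 60.6% to 65.8% in WSC. All markers of oligodendrocytes and astrocytes and those of neurons in general were above an RPKM of 10 in both RNA-seq libraries, as were those of motoneurons except Chat in the male and the transcription factors Isl1, Isl2 and Mnx1, which stayed under 2, whereas those of Schwann cells, skeletal muscle and T cells all stayed under an RPKM of 1. Between the libraries, all 5 endothelial markers were lower in the female (summed RPKM 18.7 in the male and 13.0 in the female), as were the blood markers Hbb-b1, Hba-a1 and Alas2 (96.5 and 39.3), while the 7 microglial markers summed to 132 and 144. The 8 motoneuron markers summed to 135 and 169, with 3 of them past 1.2-fold, all higher in the female. In CLIP, tags on Chat, the enzyme that makes acetylcholine, were higher in MN (log2 fold change 3.08 ± 0.13, SE) and those on Slc6a5, the glycine transporter of inhibitory neurons, were lower (-4.27 ± 0.16).

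In WSC, 47 of the 48 genes reached a mean RPKM of 1, and 40 lay above the median of all genes that passed this minimum (10.3). RPKM is the number of reads per kilobase of exon, at the deposited exon length, and per 1000000 reads on genes. It is the scale of every RNA level below. Psmb11, the beta subunit of the thymic cortex, had 0 reads in the male and 2 in the female library. The 14 genes of the constitutive core had a median RPKM of 59.9, and the 17 subunits of the 19S particle one of 74.4. Together the 48 genes made up 0.438% of reads on genes in the male and 0.461% in the female library.

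**Figure D1:**
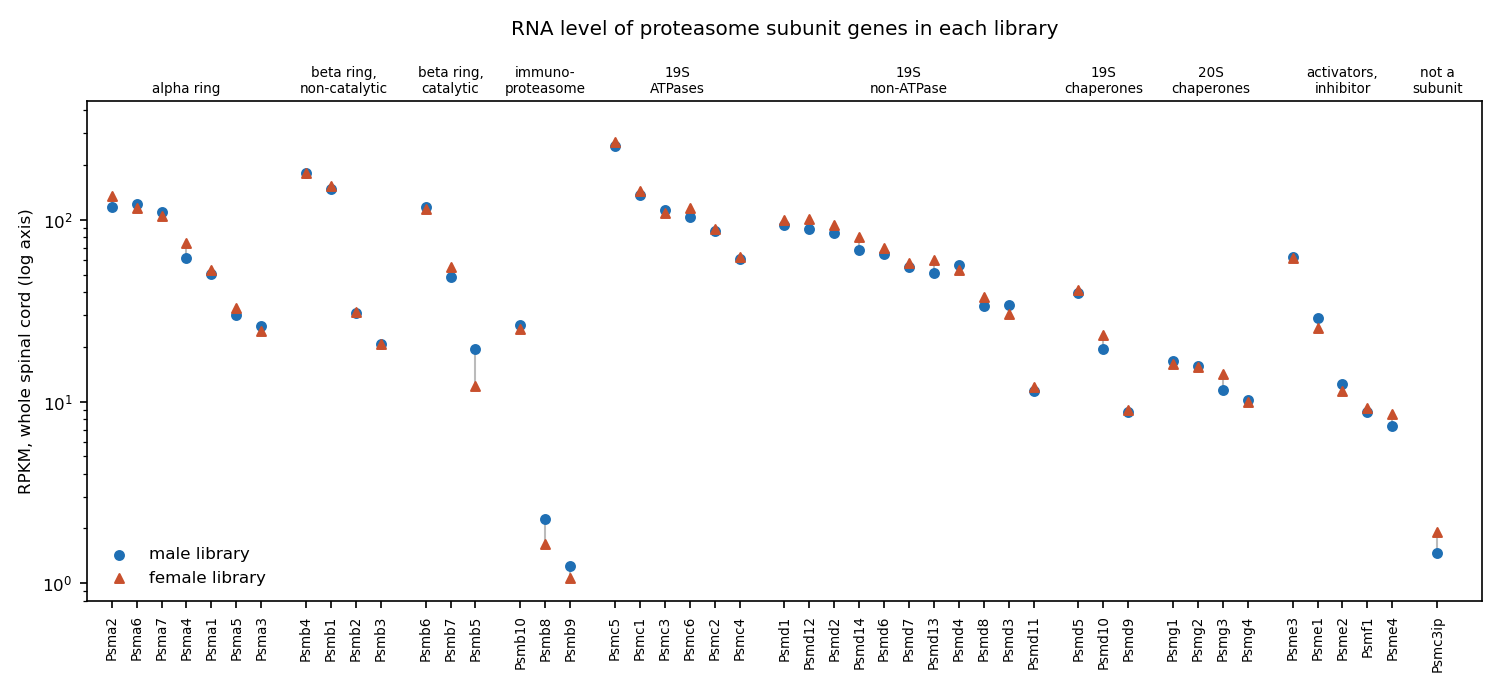
RPKM (log axis) of the 47 genes that reached a mean of 1, grouped by role, with a circle for the male and a triangle for the female WSC library. Psmb8 and Psmb9 sit near 1 to 2, far below all constitutive core genes, and Psmb5 shows the widest gap between the libraries among genes above an RPKM of 5.

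Subunits that occur in equal number in the assembled particle differed widely in RNA level. In the alpha ring, which gates the entry to the core, Psma2 had the highest mean (117 in the male, 136 in the female library, beside 122 and 116 for Psma6) and Psma3 lowest (25.9 and 24.6). Among the non-catalytic beta subunits, which shape the chamber, Psmb4 was highest at 181 in both libraries and Psmb3 lowest (20.8 and 20.7). Over the 14 core genes the highest mean level was 11.4 times the lowest. Psmb4 was the highest of the 14 and Psmb5 the lowest in each library, and this gap was wider than the difference between the libraries.

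In the 19S base, Psmc5 had the highest level of all members (255.5 and 267) and ranked 127th of all 19215 genes. Psmc5 is an ATPase of the ring that unfolds substrates, as is Psmc4, the lowest of the 6 (60.9 and 62.6). Of the 11 non-ATPase subunits, Psmd1, the large scaffold of the base, had the highest mean (93.2 and 100.3, beside 89.1 and 101 for the lid subunit Psmd12), and Psmd11, a lid subunit, was lowest (11.4 and 12.0). The medians of the factors that assist assembly were below those of the 19S subunits, although single members overlapped. The 3 chaperones of the 19S base that carry Psmd names ranged from Psmd9 (8.78 and 8.94) to Psmd5 (39.6 and 40.9), and the 4 chaperones of the core ranged from Psmg4 (10.2 and 9.94) to Psmg1 (16.8 and 16.2). Among the other activators and the inhibitor, the nuclear activator PA28 gamma, encoded by Psme3, was highest (62.4 and 61.6), and PA200, encoded by Psme4, was lowest (7.37 and 8.58). Psmc3ip was at 1.47 and 1.92.

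Only reads with a single position in the genome were counted, and 13 of the 48 genes had exact copies of part of their transcript elsewhere in mm9. The share of 74-nt windows of the longest coding transcript with such a copy was 51.7% in Psme2, 47.5% in Psmb5, 44.4% in Psma5, 42.9% in Psmb3, 30.9% in Psma4 and 26.3% in Psma3. Reads from these stretches could not be counted. Dividing the RPKM by the share of windows without a copy brought the mean level of Psmb5 from 15.8 to 30.2, beside 30.8 for Psmb2, which had no copied window. On that scale the highest core gene was 6.01 times the lowest, and Psmb3 rose to 36.3, so that Psmb2 became the lowest of the non-catalytic beta subunits. Ranks and folds between genes also rest on the deposited exon length. It was 2321 bases for Psmb2, where GENCODE exons cover 1204, and 1890 for Psmb3, where they cover 2300. The part of these lengths in the ranks was not tested.

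By RPKM, the inducible catalytic subunits were below their constitutive counterparts in both libraries, to a very different degree in each pair. Psmb9 had 49 and 38 reads (RPKM 1.25 and 1.06) where Psmb6, the caspase-like subunit that it replaces, was at 118 and 114, so that its level was 1.06% and 0.932% of Psmb6. Psmb8 had 199 and 132 reads (RPKM 2.26 and 1.64), or 11.6% and 13.5% of the chymotrypsin-like Psmb5 (19.5 and 12.2). Psmb10 was at 26.4 and 25.2, or 54.3% and 45.9% of the trypsin-like Psmb7 (48.6 and 54.8). These ratios rest on the deposited exon lengths, 3235 bases for Psmb7 and 1170 for Psmb10, where GENCODE exons cover 1214 and 1270. In reads, Psmb10 had 2220 and 1933 and Psmb7 11311 and 11637. For Psmb9 the deposited length was 544 bases (3660 in GENCODE) and for Psmb6 776 (1872). The part of these lengths in the ratios was not tested. The mean ratios were 0.997% ± 0.092, 12.6% ± 1.38 and 50.1% ± 5.90 (SD, n = 2). The gaps between the pairs were wider than the spread between the libraries. With the copies of Psmb5 taken into account, Psmb8 was at 6.59% of Psmb5, an adjustment chosen after the data were seen. PA28 alpha and beta, the interferon-inducible caps encoded by Psme1 and Psme2, were at 28.7 and 25.3 and at 12.4 and 11.5.

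**Figure D2:**
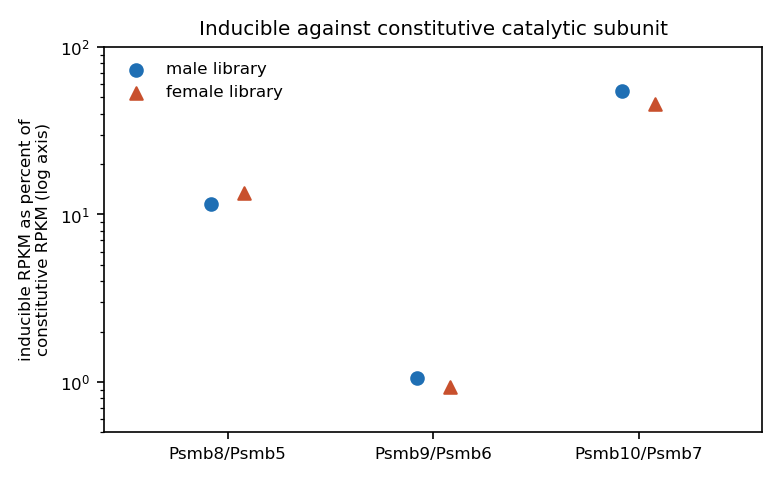
RPKM of each inducible catalytic subunit as a percent of the RPKM of the constitutive subunit it replaces (log axis), in the male (circle) and female (triangle) library. The pairs lie near 1%, 12% and 50%, and the libraries lie close together within each pair. RPKM here uses the deposited exon lengths, 3235 bases for Psmb7 and 1170 for Psmb10.

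Between the male and the female library, 6 of 47 members differed by at least 1.2-fold, against 22.6% of the 11940 genes that passed the same minimum. There was 1 library of each sex, so sex, animal and library cannot be told apart, no test was possible, and fewer cells of a type cannot be told from less RNA per cell. In the female, 4 members were higher (9.33% of all genes) and 2 lower (13.3%). The median log2 ratio of female over male was 0.05 for the members and -0.01 for all genes, and 29 of the 47 members were higher in the female, against 48.7% of all genes.

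The largest difference was in Psmb5, with 1229 reads in the male and 698 in the female library. Its RPKM was 0.62 times the male level in the female (exact 95% interval for counting error only, 0.57 to 0.68). It was the only member past 1.5-fold, which 3.92% of all genes passed (1.57% higher and 2.35% lower in the female), and it is also the catalytic subunit with the largest share of copied sequence; the part of these copies in the difference was not tested. Divided by the share of its windows without a copy, Psmb5 was at 37.2 and 23.2, and 11.8% of its exon bases overlap Mir686 on the same strand. Psmb6 and Psmb7, the other constitutive active sites, had ratios of 0.97 and 1.13.

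Psmb8 was 0.73 times the male level in the female (0.58 to 0.91), beside 0.85 for Psmb9 and 0.96 for Psmb10. Its difference went the same way as the summed endothelial and blood markers, whose part in it was not tested. Most other genes of antigen presentation did not go the same way by 1.2-fold. Of the 9 genes of that list with an RPKM of at least 1, 5 were higher in the female by at least 1.2-fold and none was lower, among them B2m, the light chain of class I molecules (50.7 and 66.0), and H2-D1, a class I heavy chain (5.46 and 17.4). Of the genes with a mean RPKM under 1, Irf1, an interferon-induced transcription factor, was lower in the female (1.08 and 0.860), and Tap1, the peptide transporter gene that faces Psmb9, was at 0.502 and 0.462.

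The 4 members that were higher in the female library were past the threshold by a small margin. They went the same way as the summed motoneuron markers (135 and 169), whose part in the difference was not tested. Psma4 had a ratio of 1.22 (1.17 to 1.27), Psmd10, a 19S chaperone known as gankyrin, 1.203 (1.13 to 1.28), and Psmg3, a chaperone of the alpha ring, 1.23 (1.11 to 1.36). Psmc3ip had 100 and 119 reads and a ratio of 1.31 (0.99 to 1.72), an interval that holds 1. For Psma4, 30.9% of the transcript is copied elsewhere, and 21.2% of the exon bases of Psmc3ip lie on exons of Mlx on the other strand.

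Most of the genes reported here that work beside the proteasome stayed within 1.2-fold between the libraries. Uba6, a ubiquitin-activating enzyme, was higher in the female by at least 1.2-fold (7.99 and 9.68). Of 9 genes for substrate delivery with an RPKM of at least 1, Ddi2, a protease that activates Nfe2l1, was lower (13.8 and 9.74). Of 10 associated subunits and enzymes without a Psm name, Zfand5 was higher (39.7 and 49.8), while the ubiquitin receptor Adrm1 was at 10.02 and 10.6 and the deubiquitinase Usp14 at 46.0 and 51.0. Nfe2l1, the factor that drives proteasome genes when proteasome activity falls, was at 92.5 and 85.6, and the core assembly factor Pomp at 28.2 and 29.2.

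Most proteasome exons in the cassette tables were nearly always included or nearly always skipped. With at least 10 junction reads in each library, 34 events in 19 genes were covered, and 22 of them were included in over 95% of transcripts and 7 in under 5%. Inclusion was computed from junction reads, with the reads on both inclusion junctions averaged and divided by the sum of this average and the skipping reads. In 18 events no skipping read was seen in either library, and in 4 no inclusion junction read. Only 5 events (14.7%) lay between 5% and 95%, against 36.6% of the 9396 covered events of all genes. Some events are variants of 1 exon with another splice site, and in 6 events a single inclusion junction had no read at all. These 6 stay in the counts above, and their inclusion reads came from the other junction alone. The 79-nt variant of a Psma3 exon, for example, counts as 100% included through a junction that it shares with other variants. The counts are therefore of events and not of distinct exons.

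The 105-nt exon of Psme3 at chr11:101178937-101179041 (mm9, plus strand) was included in 94.7% of transcripts in the male (95% Wilson interval 92.4 to 96.3) and 92.4% in the female library (89.4 to 94.6). It is coding, its length is a multiple of 3, and 28 and 31 reads skipped it. With its flanks of 400 bases it had the most NOVA tags of the covered proteasome exons, so its sequence is shown, 5′ to 3′, with each YCAY tetramer in capitals.
Psme3 exon: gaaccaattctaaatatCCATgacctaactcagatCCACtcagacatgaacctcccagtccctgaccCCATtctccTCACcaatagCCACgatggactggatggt

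The exon holds 5 YCAY tetramers. Of the 1939 WSC tags on Psme3, 285 (14.7%) were centred inside the exon, and only 1 was centred in the 400 bases before it and 1 in the 400 bases after it. The WSC libraries 1 to 4 had 67, 93, 83 and 44 tags in the exon and these flanks together. In MN, 3 of 160 tags on the gene (1.88%) were centred inside the exon and 3 in the 400 bases before it. The deepest base, the 66th of the exon, was covered by 246 WSC and 3 MN tags, and the 60 bases around it hold 4 of the tetramers. Over the gene bodies of the members, 22.3% of 60-base windows held at least 2.

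The 61-nt exon of Psme4 at chr11:30727009-30727069 (mm9, plus strand) is not in the GENCODE annotation used and lies in an intron, flanked by the AG and GT of a regular exon. Its inclusion was 21.4% in the male (10.2 to 39.5) and 7.07% in the female library (2.62 to 17.7), from 34 and 53 junction reads. Adding 61 bases shifts the reading frame if the exon lies between coding exons. The exon and the 60 bases at the deepest point of WSC tags before it are shown because the tags lay on the intron and not on the exon.
Psme4 exon: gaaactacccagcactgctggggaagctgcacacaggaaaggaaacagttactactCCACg
Psme4 intron before it: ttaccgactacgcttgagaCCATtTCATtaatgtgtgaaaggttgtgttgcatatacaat

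In the 400 bases before the Psme4 exon there were 84 WSC and 15 MN tags, none centred inside the exon, and 23 WSC and 3 MN tags in the 400 bases after it. The deepest base lay 68 bases before the exon, with 42 WSC and 4 MN tags over it, in the window chr11:30726911-30726970. The 4 WSC libraries had 22, 30, 37 and 18 tags near the exon, and the MN lines #6 and #17 had 8 and 10.

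**Figure D3:**
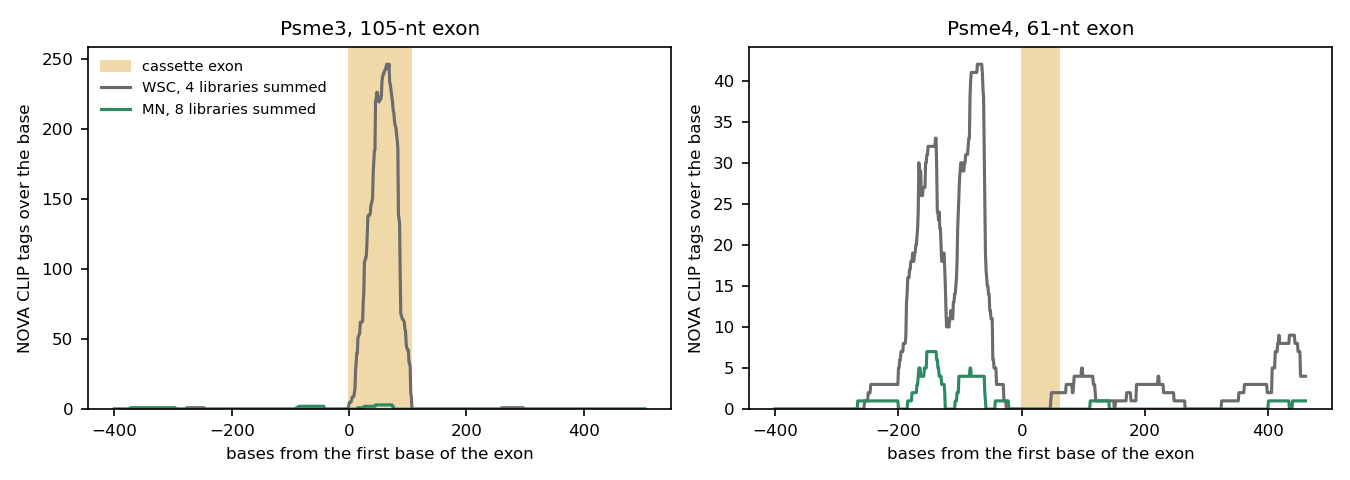
NOVA CLIP tags over each base from 400 bases before to 400 bases after the Psme3 and the Psme4 cassette exon, summed over the 4 WSC and over the 8 MN libraries, on vertical axes of different scale. WSC tags pile up inside the Psme3 exon to 246, whereas at Psme4 they peak at 42 in the intron before the exon, where MN tags are also seen.

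The other 3 events of intermediate inclusion had 6 or fewer CLIP tags nearby. In the 76-nt coding exon of Psmg4 (chr13:34257930-34258005, plus strand) inclusion was 56.1% in the male (35.4 to 74.9), with 9 skipping reads, and 100% in the female (77.2 to 100), with none. The 153-nt coding exon of Psmf1 (chr2:151561210-151561362, minus strand) had 0 and 7 skipping reads and an inclusion of 100% (91.0 to 100) and 84.9% (72.0 to 92.5). Psmf1 encodes the inhibitor PI31, and the weaker inclusion junction of this event had only 1 and 0 reads, so that its rate rests on the other junction. The 85-nt exon of Psma4 in the UTR was included in 11.8% (7.25 to 18.7) and 8.09% (4.38 to 14.4).

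Of the 34 covered member events, 0 differed between the libraries by Fisher's exact test on inclusion and skipping counts (two-sided, Benjamini-Hochberg FDR of at most 0.1), against 4.26% of all covered events. At an unadjusted Fisher's exact p under 0.05 there were 3 (12.3% of all covered events): the Psmf1 exon (p = 0.00702, adjusted p = 0.134), the Psmg4 exon (p = 0.00757, adjusted p = 0.141) and an unannotated 143-nt exon of Psmb2 (p = 0.00756, adjusted p = 0.141), which had 13 and 2 exon body reads but no inclusion junction read, and 38 WSC and 4 MN tags nearby. With junction reads only, the count was also 0. This test compares 2 libraries and not the sexes.

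**Figure D4:**
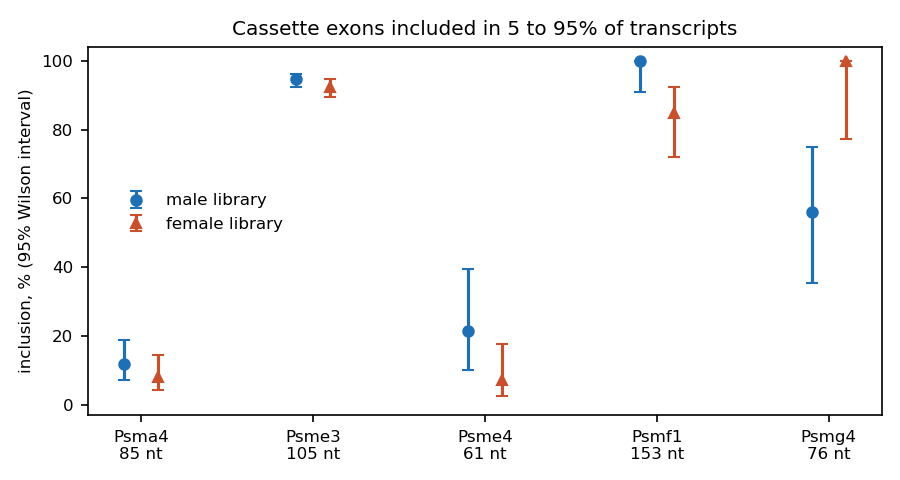
Inclusion in percent of the 5 member exons between 5% and 95%, with 95% Wilson intervals, in the male (circle) and female (triangle) library. The intervals of the libraries are narrow and overlap for Psme3 and do not meet for Psmg4, which has 32 and 26 junction reads.

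NOVA tags were unevenly spread over the proteasome genes. In WSC the 48 genes had 13210 tags in all, of which Psme4 had 2893, Psme3 1939 and Psmd1 1794. In MN they had 1656, of which Psme4 had 573. The inducible Psmb8 and Psmb9 and the thymic Psmb11 had no tag in any of the 12 libraries, which allows up to 1.93 tags per 1000000 tags on genes in MN and 0.212 in WSC (3 tags over all libraries of a source, counting error only). Psmb10 had 1 MN and 12 WSC tags. Psmb4, with the highest RNA level of the core, had 5 MN and 3 WSC tags, whereas Psme4, with a mean RPKM of 7.98, had the most. Unlike RPKM, these tag totals cover introns and are not scaled by length. The exon length was 10961 bases for Psme4 and 927 for Psmb4.

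Only 7 of the 48 members had enough tags to be tested between MN and WSC. Of these, 3 were higher and 1 was lower in MN by edgeR's quasi-likelihood test at an FDR of at most 0.01, a level that 57.3% of the 4539 genes tested passed (28.1% higher and 29.2% lower). In 2 of the 7, Psmd1 and Psmd11, the MN and WSC libraries did not overlap, against 30.0% of all genes tested. Values below are tags per 1000000 tags on genes. They follow the RNA level of a gene as well as its binding, and no RNA-seq of MN was analysed here.

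Psme4 had 206, 205, 202 and 211 in the WSC libraries and a lowest, median and highest value of 199.9, 362 and 438 in the 8 MN libraries. All but 1 of the MN libraries were above every WSC library. The log2 fold change of MN over WSC was 0.90 ± 0.10 (SE, edgeR adjusted p = 1.3e-08). With tags on introns only it was 0.37 (edgeR adjusted p = 0.00463) and with tags on exons only 0.69 (edgeR adjusted p = 0.00337), so that the size of the difference was smaller in both fits than over the whole gene. Of the tags on Psme4, 83.4% lay in introns in MN and 66.6% in WSC. Over all genes, too, the share of tags on exons was smaller in MN (32.9% to 46.0%) than in WSC (60.6% to 65.8%). The fits on exons or introns only scale each library by its own exon or intron tags. The part of this shift in the value over the whole gene was not tested.

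The deepest point of the MN tags on Psme4 lay in an intron at chr11:30693122-30693181 and was covered by 29 MN tags from all 8 libraries (5.06% of those on the gene) and 129 WSC tags (4.46%). In WSC the deepest point was in the UTR at chr11:30779714-30779743, with 191 WSC tags (6.60%) and 15 MN tags (2.62%). These sequences are shown, with YCAY in capitals, because Psme4 had the most tags and the lowest adjusted p of the members.
Psme4 intron site: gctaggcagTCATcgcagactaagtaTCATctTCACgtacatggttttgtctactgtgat
Psme4 UTR site: ggtaTCATccgtggtgactctgcaagtttc

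Psmd1 had 143, 117.8, 129.6 and 122 in WSC and 27.2, 62.8 and 117.6 (lowest, median and highest) in MN. Each MN library was below all WSC libraries, the highest of them only just. The log2 fold change was -0.80 ± 0.16 (SE, edgeR adjusted p = 8.7e-05). It was -1.42 on exons only and -0.66 on introns only, and both passed the same test. Of the WSC tags on Psmd1, 58.6% were in coding exons, and the deepest point there, at chr1:88024814-88024843, had 281 tags (15.7%), against 5 of 110 in MN (4.55%). The deepest MN point lay in the same stretch, with 7 of 110 MN tags (6.36%). Part of the exon bases of Psmd1 (8.07%) lie on exons of another gene on the same strand, and tags over both genes were left out.
Psmd1 coding site: ccttTCACacttcctgTCATtggcttatac

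Psmf1 had 24.3, 23.9, 22.6 and 16.2 in WSC and 0, 42.3 and 67.9 (lowest, median and highest) in MN, and the groups overlapped. The log2 fold change was 0.96 ± 0.25 (SE, edgeR adjusted p = 0.00147) from 65 MN tags. By edgeR's exact test, where Psme4 was the only member called higher in MN, Psmf1 lost this call. Against WSC, line #17 alone passed (1.15, edgeR adjusted p = 0.00196) and line #6 alone did not (0.70, edgeR adjusted p = 0.114), but line #17 over line #6 gave 0.43 ± 0.43 (SE, edgeR adjusted p = 0.984). Its deepest WSC point, in the UTR at chr2:151541586-151541615 on the minus strand, was covered by 38 of 319 WSC tags and by 0 of 65 MN tags, which allows up to 4.62%. The deepest MN point had 7 tags and lay in an exon of a non-coding transcript.
Psmf1 UTR site: ttTCACttggtttgaaatcTCATagcTCAT

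Psmd11 had 48.2, 48.8, 44.1 and 43.6 in WSC and 51.6, 65.3 and 136 (lowest, median and highest) in MN, with each MN library above all WSC libraries. The log2 fold change was 0.54 ± 0.17 (SE, edgeR adjusted p = 0.00729). This call was lost without replicate 3 of either line and without each WSC library in turn (edgeR adjusted p = 0.0120 to 0.0236), while the direction stayed. It was also lost by DESeq2 (adjusted p = 0.0106), by edgeR's exact test (adjusted p = 0.0114), with RLE factors (0.0121), with no filter on low counts (0.33, edgeR adjusted p = 0.199), with the long 5′ linker only (edgeR adjusted p = 0.0171) and for each line alone (edgeR adjusted p = 0.129 for line #6 and 0.0315 for line #17). In both sources the deepest point lay in the same stretch of the UTR, with 160 of 657 WSC tags (24.4%) and 16 of 99 MN tags (16.2%).
Psmd11 UTR site: ttttgcatctTCACtgaatctgactggctt

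The other 3 tested members did not pass. Psme3 had 149.7, 142, 129 and 125 in WSC and 79.96, 100.2 and 136 in MN (log2 fold change -0.35 ± 0.13, SE, edgeR adjusted p = 0.0192). Nearly all of its tags were exonic (99.8% in WSC and 97.5% in MN), and with tags on exons only the sign turned (0.41, edgeR adjusted p = 0.00919). That fit scales each library by its exon tags, which were a smaller share of tags on genes in MN, as given above. Psmd14, the deubiquitinase of the lid, had a log2 fold change of 0.52 ± 0.19 (SE, edgeR adjusted p = 0.0165) and its edgeR adjusted p ranged from 0.00192 to 0.166 when a library was left out, passing without replicate 1, 2 or 3 of line #17 and highest without replicate 4 of that line (log2 fold change 0.39). Psmd14 had 48.6, 54.5, 60.9 and 57.1 in WSC and 0, 77.5 and 87.6 in MN, and with tags on introns only its value was -0.14 (edgeR adjusted p = 0.562). Psma2 had 35.5, 33.96, 35.9 and 40.3 in WSC and 15.2, 37.7 and 67.9 in MN, with a log2 fold change of 0.04 ± 0.25 (SE, edgeR adjusted p = 0.887) that was 0.60 for line #6 and -0.55 for line #17.

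On Psme3 a single place in the UTR took the largest share of the tags in both sources, namely 624 of 1939 (32.2%) in WSC and 55 of 160 (34.4%) in MN. The 30 bases around the deepest WSC point, chr11:101183922-101183951, hold no YCAY. Of all 30-base windows in the gene bodies of the members, 33.5% held at least 1.
Psme3 UTR site: atacaaacatctcagcaggtgatagttgtc

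**Figure D5:**
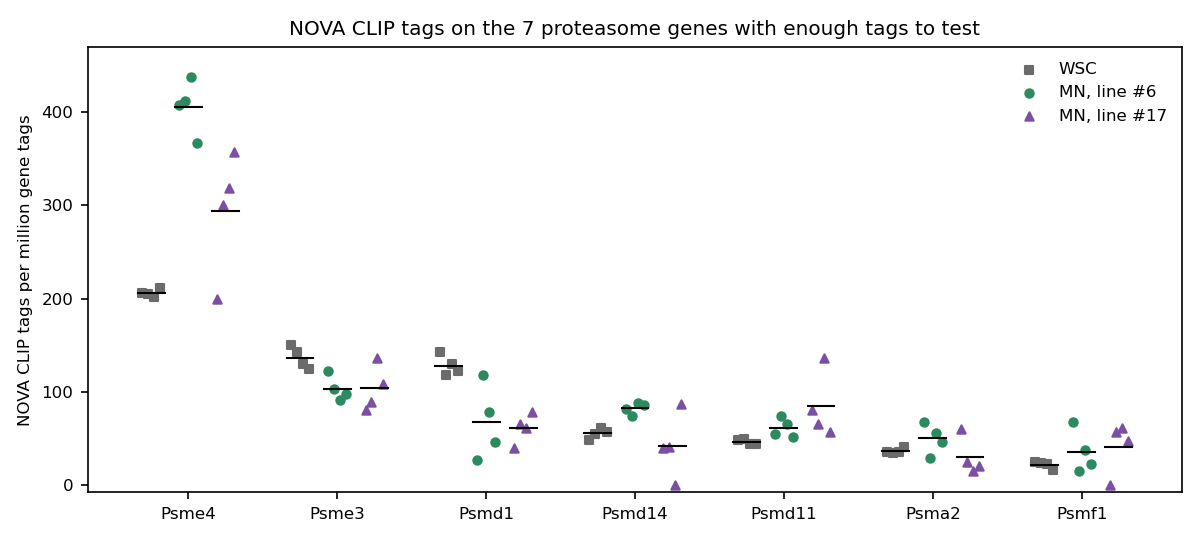
NOVA CLIP tags per 1000000 tags on genes for the 7 members tested, with 1 symbol for each library (squares, WSC; circles, MN line #6; triangles, MN line #17) and a bar at the mean of each group of 4. Psme4 reaches 438 in MN against at most 211 in WSC, and MN libraries scatter more than WSC libraries in all 7 genes.

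Of 45 genes on the lists of factors that work beside the proteasome, 17 were tested in CLIP. In MN 2 were higher and 5 lower, against 28.1% and 29.2% of all genes tested. Nfe2l1 had the largest change (log2 fold change -2.12 ± 0.18, SE), followed by Ubqln4 (-1.91 ± 0.27), B2m (-1.79 ± 0.23), Ubqln2 (-1.53 ± 0.19) and the ubiquitin-activating enzyme Uba1 (-1.17 ± 0.17). The ubiquilins Ubqln2 and Ubqln4 carry ubiquitinated proteins to the proteasome. AI314180, the mouse gene for the proteasome-bound Ecm29, was higher (0.72 ± 0.12), as was Txnl1 (0.46 ± 0.13), a thioredoxin-like protein of the 19S particle.

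Promoter sequence was compared for the 40 subunit genes present in the set of RefSeq promoters used (GRCm38.p6, 250 bases before to 50 after the start). The core of the antioxidant response element through which Nfe2l1 acts, TGACNNNGC or TGAGNNNGC on either strand, was in 16 of them (40.0%), against 30.8% of all genes. It was in both of the constitutive catalytic genes of that set, Psmb5 and Psmb6, and in none of the 3 inducible ones. These groups are small and were not compared by a test. Psmb7 was absent from the set and was not examined. The interferon-stimulated response core, GAAA and again GAAA after a gap of 2 bases, on either strand, was in 5 (12.5%), against 3.99% of all genes, and in none of the 3 inducible catalytic genes, and CCAAT was in 14 (35.0%), against 41.1%.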

How the data were processed

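RNA-seq libraries (2) and CLIP libraries (12) were grouped by their labels. The authors mapped paired poly(A) RNA-seq reads, trimmed to 74 nt, to mm9 with OLego, kept unambiguous reads, and deposited read counts and RPKM per gene and counts of inclusion and skipping reads per cassette exon, made with Quantas. Strand use in this counting and the aligner versions are not given in the sources used here. For CLIP, the authors aligned tags to mm9 with Novoalign, removed duplicates and tags next to linker-like pentamers, and deposited unique tags as genome positions. Columns holding a deposited inclusion rate were not used.

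RNA levels are the deposited RPKM. Copies were sought with 74-base windows, 10 bases apart. Intervals for ratios of reads are exact binomial (Clopper-Pearson), those for inclusion are Wilson intervals, all at 95%, and they cover counting error only. Exon events with at least 10 junction reads in each library were tested by Fisher's exact test with Benjamini-Hochberg adjustment over all covered events. CLIP tags were counted by strand on gene bodies, leaving out tags on more than 1 gene, and all genes were fitted with edgeR 4.0.16 (R 4.3.3; TMM, filterByExpr, quasi-likelihood test, Benjamini-Hochberg FDR of at most 0.01). Replicates are the libraries named in the labels, and p-values of the CLIP tests measure the spread between these. Fisher's exact p-values compare the read counts of 2 libraries and cover counting error only. Their inclusion counts hold the reads of both inclusion junctions and of the exon body. DESeq2 1.42.0, other scalings, filters, thresholds, a replicate block, each line alone, the long 5′ linker alone, exons or introns alone and leaving out each library were alternatives. Both tests were tested on simulated data: the CLIP test called 84% of 2-fold changes over 4539 genes, and the exon test 79% of shifts of 0.2. The CLIP simulation changed 200 genes, fewer than were called in the data. The exon shifts were drawn only from events with many reads and intermediate inclusion, which leaves out most of the member exons described. Neither share is therefore the power for the members. Python 3.11.15, scipy 1.17.1 and samtools 1.23.1 were used.

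Named genes are members, by a rule: the highest and lowest of each role, the catalytic genes, those past 1.2-fold or called in CLIP, and exons included at 5% to 95% or called; the tested members not called were added after their values were seen, and other genes come from lists. Members and lists were chosen with earlier results of these data known. The values of 1 listed gene are not reported here.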

Additional observations from a re-analysis of the deposited data

How the results depend on the processing

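The RNA ratios of the 6 members past 1.2-fold kept their direction under other scalings and pseudocounts, the only alternatives that could change a ratio. With 1 added to the RPKM, 4 of 47 members were past 1.2-fold (16.7% of all genes), without Psmd10 (log2 ratio 0.25) and Psmc3ip (0.24). At 1.5-fold the count of members past the threshold was 1 of 47 (3.92% of all genes). Dividing by the share of windows without a copy, chosen after seeing the data, moved the median of the 14 core genes to 77.6 and Psmb8 to 6.59% of Psmb5. Adding exon body reads moved the mean inclusion of the Psma4, Psme3 and Psme4 exons to 22.7%, 97.2% and 36.7%.

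In CLIP, 117 of 141 alternative values for the 7 tested members kept their side of the threshold and, where they passed it, their direction. The count higher in MN was 1 of 7 by edgeR's exact test (1098 of 4539 genes), 1 of 18 for line #6 alone (1056 of 7664) and 1 of 3 with tags on introns only (343 of 2757). It ranged from 1 to 5 when a library was left out. It was 1 of 5 without line #6 replicate 3 (1020 of 3637 genes) and without each WSC library (1050 of 3880 to 1094 of 3899), where Psmf1 was not tested. Without line #17 replicate 2 it was 5 of 9 (1328 of 5049). The count lower in MN was 2 of 7 at an FDR of 0.05 (1555 of 4539 genes). It was 2 of 18 for line #6 alone (1230 of 7664 genes), and 3 of 18 for line #17 alone (1235 of 8016) and with the long 5′ linker only (1689 of 8028). With no filter on low counts it was 5 of 45 (2611 of 16436). All of these but the FDR of 0.05 tested more members. With tags on exons only Psme3 turned to 0.41. Psme4 and Psmd1 kept their calls in every alternative in which they were tested. The causes were not tested.

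With the replicate number as a block, 2 of 7 members were higher (1033 of 4539 genes) and 1 lower (1122), and Psmd11 lost its call (0.61, edgeR adjusted p = 0.0151). Same-numbered MN and WSC libraries correlated at -0.07 to 0.04 in their deviations from the group means. The numbers were therefore not taken to pair the samples. All 4 libraries of line #17 correlated best with their own number in line #6, and 3 of 4 did so the other way. Same-numbered libraries of both lines correlated at 0.06 to 0.20, a hint from the data and not from the labels. Replicates 1 and 2 of both lines also shared the short 5′ linker, whose part in this was not tested. Depth limits MN CLIP, where 41 of the 48 members had too few tags to be tested.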
